A study of Mus musculus with 2 samples.

Results

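The type I interferon response was followed through 45 of its genes in RNA from haematopoietic stem cells, the source of every blood lineage, sorted from mouse bone marrow. The genes were chosen by name, as a set of receptors, sensors, effectors and feedback genes of the interferon response, and all were found, each in 1 row of each file, among 23961 gene symbols. Of the 45, 42 reached 1 FPKM in at least 1 of the libraries and were compared; Rsad2, Zbp1, Ifit1 and Ifi204 did so through Per2wt alone, and none through Per2def alone. FPKM is the number of fragments per kilobase of transcript, set relative to all mapped fragments of the library, so levels of different genes can be set side by side. The study holds 2 libraries, 1 per genotype, both from untreated C57BL/6 mice kept in a 12:12 light/dark cycle. One is labelled Per2wt (wild-type) and 1 is labelled Per2def (Per2-deficient). The Per2 allele, the age and number of the animals, the hour of collection and the sort markers are not named by the labels.

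Type I interferons are secreted proteins that bind a receptor made of IFNAR1 and IFNAR2, and the kinases JAK1 and TYK2 then activate STAT proteins. These join IRF9 in a complex that binds a DNA element, the interferon-stimulated response element (ISRE), and switches on genes that sense viral nucleic acids, block viral growth or turn the response off again. In bone marrow, interferon given to mice brings dormant stem cells into division for a time, and stem cells carry some of these transcripts without infection.

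Each genotype is 1 library, so replicates could not be compared, no test was possible and every difference is between these libraries. Differences are on the log2(FPKM + 1) scale, Per2def minus Per2wt, on which changes of low genes look smaller than they are, and 1.5-fold on that scale is used as the threshold. Folds given as such are plain ratios of FPKM, and paired values give Per2wt first. The files hold no read totals, so the depth is unknown, although the most common FPKM ratio of 3232 very low genes corresponds to a Per2def library 1.24 times as deep as the other. Per2 itself was higher in the library labelled Per2def (6.16 FPKM) than in the library labelled Per2wt (1.96 FPKM). That goes against a simple loss of the transcript, and all directions are given by label. Of 12 stem cell markers 9 reached 1 FPKM in at least 1 library, while Slamf1, Fgd5 and Hoxb5 did not. All 3 multipotent progenitor markers, Flt3, Cd48 and Cd27, reached it as well.

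Promoters of several members hold letters that match the element through which interferon acts, and are printed here for 3 of the most different members. Sequences are from RefSeq (GRCm38.p6), read 5′ to 3′ on the strand of the gene, and capitals mark matches to the ISRE core, searched as GAAA, any 2 bases and GAAA, or as TTTC, any 2 bases and TTTC, which is the same element on the other strand. Overlapping matches run together. A match was present in 3.44% of all 32851 promoters in the table, in windows from 250 bases before to 50 bases after the start. Of the 45 members 33 were matched by symbol, too few for a share over the members; Dhx58, Zbp1, Ifi204, Oas2, Mx1, Mx2, Parp9, Parp14, Ifi27, Ifi27l2a, Usp18 and Rtp4 were not matched. The first sequences are the 250 bases upstream of Isg15 (chr4:156200819-156201068, minus strand) and Rsad2 (chr12:26456453-26456702, minus strand), which differed most among the members that were lower in Per2def, and of Xaf1 (chr11:72301379-72301628, plus strand), which was higher.
Isg15: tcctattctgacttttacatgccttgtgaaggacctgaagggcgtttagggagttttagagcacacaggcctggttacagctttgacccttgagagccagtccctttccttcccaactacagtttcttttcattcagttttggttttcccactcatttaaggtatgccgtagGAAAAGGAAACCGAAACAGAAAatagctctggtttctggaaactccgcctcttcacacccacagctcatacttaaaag
Rsad2: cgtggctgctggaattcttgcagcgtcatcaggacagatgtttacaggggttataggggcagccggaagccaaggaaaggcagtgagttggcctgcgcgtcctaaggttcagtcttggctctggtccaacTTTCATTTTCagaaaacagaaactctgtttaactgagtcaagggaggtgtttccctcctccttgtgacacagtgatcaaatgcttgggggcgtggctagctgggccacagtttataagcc
Xaf1: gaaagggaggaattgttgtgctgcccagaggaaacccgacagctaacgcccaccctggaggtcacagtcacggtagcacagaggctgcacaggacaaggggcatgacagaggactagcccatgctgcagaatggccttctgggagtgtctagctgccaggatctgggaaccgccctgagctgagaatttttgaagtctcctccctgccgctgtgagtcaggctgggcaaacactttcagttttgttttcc

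Isg15 held 3 overlapping matches, the nearest beginning 66 bases before the start, and Rsad2 held 1, beginning 120 bases before it. The letters were not found in the windows of Xaf1 or Ifi44, which is a description of these windows only. Also without a match were Ifi35, Parp12, Oasl2, Ube2l6, Oasl1, Cmpk2, Ifit2, Lgals3bp, Trim25, Ifnar2 and Herc6, all lower in Per2def. Sp100, Uba7, Isg20, Ifnar1 and Ifitm1, all higher, had none either. The GAS element, bound by STAT dimers and searched as TTC, any 3 bases and GAA, was in 8.30% of all promoters, and was found in the windows of Ifnar1, Ifnar2, Oas1a, Eif2ak2, Ifit2, Ifitm3, Isg20 and Ifi35. The same letters also stood before members that were lower by less or were higher, as these windows of 30 bases show for Oas1a (chr5:120907526-120907555, minus strand), Oas3 (chr5:120777715-120777744, minus strand), Ifit1 (chr19:34640794-34640823, plus strand), Socs1 (chr16:10785594-10785623, minus strand), Ifitm2 (chr7:140955988-140956017, minus strand), Trim30a (chr7:104465210-104465239, minus strand) and Lgals9 (chr11:78984960-78984989, minus strand).
Oas1a: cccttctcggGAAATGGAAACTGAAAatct
Oas3: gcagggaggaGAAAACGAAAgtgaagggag
Ifit1: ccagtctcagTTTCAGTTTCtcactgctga
Socs1: gccgGAAAGAGAAACCGAAAgcgggggtgg
Ifitm2: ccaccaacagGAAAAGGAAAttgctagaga
Trim30a: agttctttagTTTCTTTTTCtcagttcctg
Lgals9: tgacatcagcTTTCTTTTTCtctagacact

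Most response genes were lower in the library labelled Per2def, and the lower ones were mainly the less abundant members. Of 42 measured members 30 were lower (71.4%), against 38.0% of all 11121 genes at 1 FPKM or more, and 12 were higher, against 62.0% of all genes. These counts take differences of any size, and 17 of the 42 members lay within 0.1 of 0, in either direction. With median-of-ratios scaling 36 were lower and 6 higher, where 49.0% of all genes were lower. The median difference of the members was −0.09, while that of all genes was 0.05. In such bulk samples, fewer cells of a type and less RNA per cell cannot be told apart. At least 1.5-fold lower were 6 members, which is 14.3% of them, against 1.70% of all genes and 0.734% of the 10081 genes left without rows named as small or predicted RNAs. These 6 were Isg15, Rsad2, Ifi44, Rtp4, Zbp1 and Oas2. Rsad2 and Zbp1 passed the filter only through the library in which they were higher, so the counts are also given over the 38 members at 1 FPKM or more in both libraries, a limit chosen after seeing the data. Of these 26 were lower, against 38.4% of the 10460 genes held to the same limit, and 4 were lower by at least 1.5-fold, against 0.851%. Their median was −0.06. Xaf1 was the single member higher by at least 1.5-fold, which is 2.38% of them, against 2.61% of all genes. At 2-fold on the log2(FPKM + 1) scale none of the 42 was lower, against 0.998% of all genes. At a threshold of 0.32 on the log2 scale 12 members were lower, against 4.38% of all genes, and 1, Xaf1, was higher, against 8.20%. All 3 other scalings of the libraries lowered Per2def relative to Per2wt, by factors of 1.0388, 1.0255 and 1.0048. The 30 lower members therefore could not change sign, and only the 12 higher ones could. Of these 12, 6 kept their direction under all 3. The 6 that changed sign under at least 1 of them (Ifi203, Ifi27, Ifitm2, Isg20, Sp100 and Uba7) were each within 0.05 of 0.

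The difference went with the level. All 18 members whose higher value lay between 1 and 5 FPKM were lower in Per2def, against 35.7% of the 4019 genes at that level without small and predicted RNAs, and their median was −0.25 where that of those genes was 0.07. These 18 include the 4 that passed the filter through Per2wt alone, and without them all 14 that remain were lower, with a median of −0.20. Of 17 members between 5 and 20 FPKM, 9 were lower (median −0.01), against 37.9% of genes there. Of 7 members at 20 FPKM or more, 3 were lower (median 0.02), against 43.1%. Over the 42 members, Spearman's rho between the mean level and the difference was 0.55, given as a description, since all points share the same 2 libraries and the less abundant genes carry more counting error. When members were placed in the lowest bin by their mean level 17 of 17 were lower, by their Per2def level 18 of 18, and by their Per2wt level 18 of 19, the exception being Xaf1. No share of all genes was counted for these bins. Placing by Per2def level also favours genes low in that library, and takes in Isg15, Rtp4, Oasl2 and Oas1a, which were over 5 FPKM in Per2wt. The summed level of all 42 differed less, at 629 FPKM in Per2wt against 609 FPKM in Per2def, and the 7 members at 20 FPKM or more made up 430 and 431 FPKM of it.

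**Figure D1:**
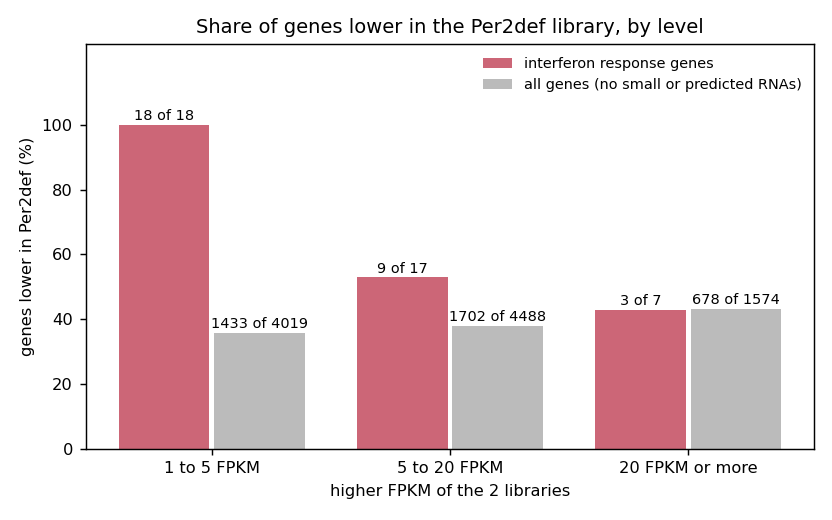
Share of genes lower in the Per2def library (percent), in bins of the higher FPKM of the 2 libraries, for the interferon response genes (red) and for all genes without small or predicted RNAs (grey), with counts above the bars. All 18 members at 1 to 5 FPKM were lower, while at 20 FPKM or more the members (3 of 7) and all genes (678 of 1574) had nearly the same share.

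The receptor subunits were measured at like levels in both libraries. Ifnar1 stood at 7.15 FPKM in Per2wt against 7.54 FPKM in Per2def, and Ifnar2, which also docks JAK1, at 20.2 and 19.8 FPKM. Their differences were 0.07 and −0.03. Both genes are on chromosome 16 (GRCm38), and 8.87% of the 50-base words of the Ifnar2 transcript also occur in an overlapping read-through gene, Gm21970.

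Among sensors of foreign nucleic acid, Zbp1 and Dhx58 were lower and the other members differed little. Zbp1, which binds Z-form nucleic acid and can trigger necroptosis, stood at 2.03 FPKM in Per2wt against 0.925 FPKM in Per2def, 2.19-fold lower (difference −0.65; chromosome 2, 173206612 to 173218923). Dhx58, which encodes LGP2, a helper of the RNA helicase sensors, stood at 4.79 and 3.21 FPKM (−0.46), short of the 1.5-fold threshold. The helicase genes themselves were closer, with Ddx58 (RIG-I) at 4.64 and 4.20 FPKM and Ifih1 (MDA5) at 2.93 and 2.76 FPKM. So the co-sensor of this group differed more than either helicase that signals, on values of a few FPKM. Of the interferon-inducible p200 genes, Ifi203 stood at 15.9 and 16.1 FPKM, and Ifi204 at 1.04 and 0.937 FPKM. Ifi204 shares 30.2% of its 50-base words with other transcripts, mainly Ifi211, which makes its value uncertain.

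Genes for enzymes switched on by double-stranded RNA were lower, apart from PKR. The 2′-5′ oligoadenylate synthetases make the messenger that activates RNase L. Oas2 stood at 2.86 FPKM in Per2wt against 1.54 FPKM in Per2def (difference −0.60; chromosome 5, 120730333 to 120749853), just past 1.5-fold. Others of the family on chromosome 5 were lower by less, Oas3 at 3.38 and 2.76 FPKM (−0.22) and Oas1a at 5.92 and 4.66 FPKM (−0.29). Oas1a shares 57.6% of its 50-base words with its near copy Oas1g, which was itself at 3.16 and 2.27 FPKM. Oasl2, an OAS-like gene, stood at 5.88 and 4.24 FPKM (−0.39), and its neighbour Oasl1, which restrains translation of the factor IRF7, at 3.29 and 2.78 FPKM (−0.18). Eif2ak2, the gene of the kinase PKR, which stops translation in infected cells, went the other way at 6.81 and 8.46 FPKM (0.28).

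In the ISG15 system the modifier gene differed more than the genes of its enzymes. ISG15 is a ubiquitin-like protein joined to other proteins by an E1 (Uba7), an E2 (Ube2l6) and a ligase (Herc6 in mice). Isg15 stood at 6.78 FPKM in Per2wt against 3.62 FPKM in Per2def, 1.87-fold lower, the widest lower difference of the 42 members on the log2(FPKM + 1) scale (−0.75; chromosome 4, 156199424 to 156200818). Ube2l6 stood at 13.4 and 10.8 FPKM (−0.29). Uba7 stood at 14.5 and 14.8 FPKM, Herc6 at 2.10 in both and Trim25, a ubiquitin ligase that activates RIG-I, at 7.76 and 7.55 FPKM. Herc6 shares 23.8% of its 50-base words with an overlapping predicted gene, Gm45193.

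**Figure D2:**
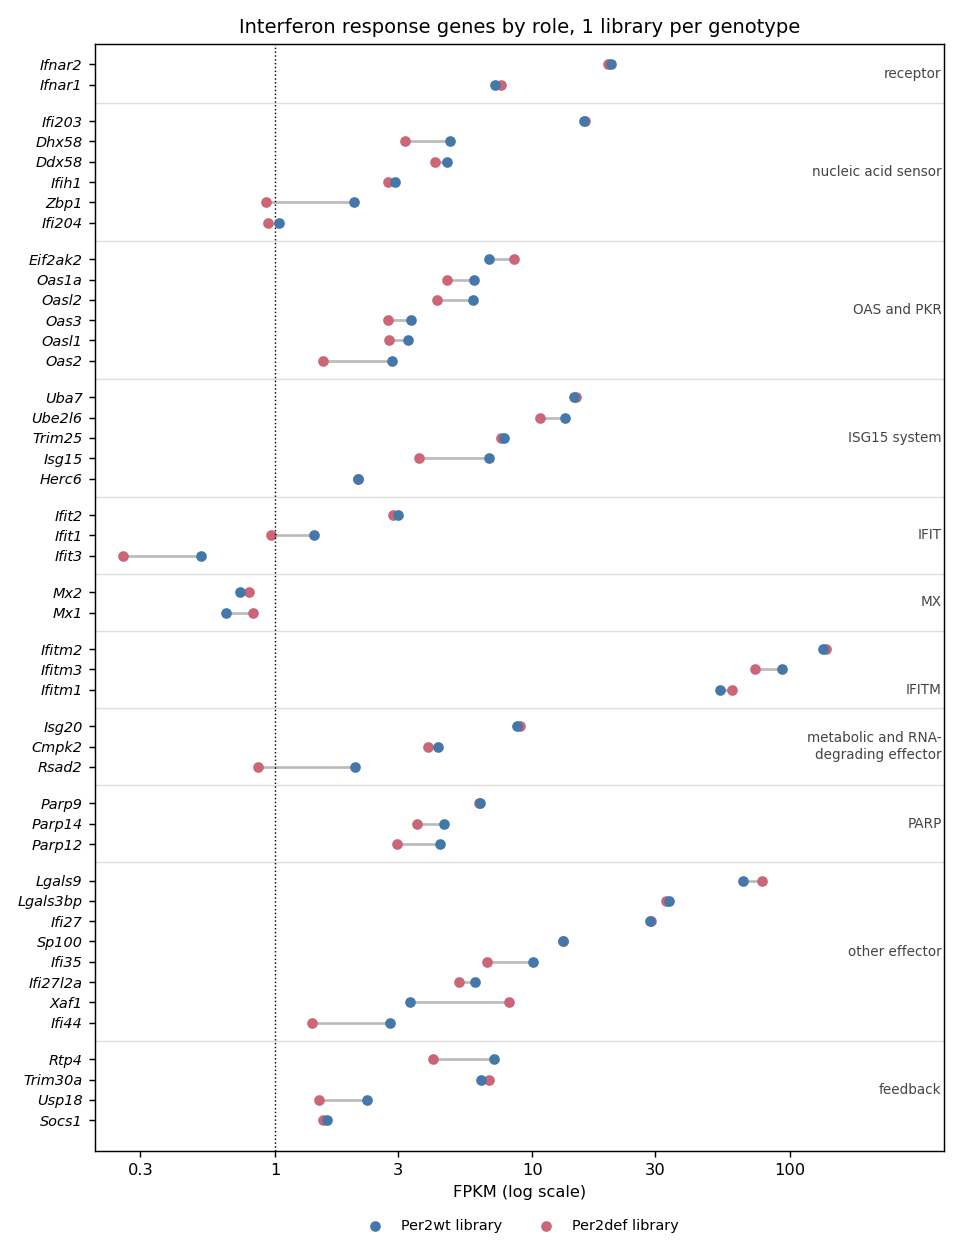
FPKM (log axis) of all 45 members by role, with 1 blue point for the Per2wt library and 1 red point for the Per2def library, joined by a line; the dotted line marks 1 FPKM. Long lines to the left are seen for Isg15, Rsad2, Zbp1, Oas2, Ifi44, Rtp4 and, under 1 FPKM, Ifit3, and a long line to the right for Xaf1, while the IFITM genes and receptors lie close together.

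Direct antiviral effectors were split by family. Rsad2 encodes viperin, which makes a chain-terminating nucleotide, and stood at 2.05 FPKM in Per2wt against 0.861 FPKM in Per2def, 2.39-fold lower (difference −0.71; chromosome 12, 26442746 to 26456452). Its neighbour on chromosome 12, Cmpk2, a nucleotide kinase that can supply viperin, stood at 4.32 and 3.92 FPKM (−0.11). The adjacent pair therefore did not differ by the same amount, although both were lower. Isg20, an RNA exonuclease gene, stood at 8.70 and 8.99 FPKM. Of the IFIT genes, whose proteins bind viral RNA ends, Ifit1 stood at 1.42 and 0.965 FPKM (−0.30) and Ifit2 at 3.01 and 2.87 FPKM (−0.05). Ifit3 was under 1 FPKM in both, at 0.514 and 0.257 FPKM, and shares 51.2% of its 50-base words with Ifit3b.

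The IFITM genes, whose membrane proteins block virus entry, included the most abundant members and differed in direction within the family. Ifitm2 stood at 134 FPKM in Per2wt against 139 FPKM in Per2def, and Ifitm1 at 53.6 and 59.7 FPKM. Ifitm3 was lower, at 93.5 and 73.2 FPKM (−0.35). The direction of Ifitm2 changed with median-of-ratios scaling and not with the other scalings, and 48.5% of its 50-base words occur in another transcript, mainly the read-through gene Gm45717. Mx1 and Mx2, of the family of dynamin-like antiviral GTPases, were the remaining members under 1 FPKM, at 0.647 and 0.823 FPKM and at 0.728 and 0.790 FPKM. C57BL/6 mice are known to carry a defective Mx1, and Mx2 is annotated as a polymorphic pseudogene.

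The PARP genes, ADP-ribosyltransferases that limit viral translation and support interferon signalling, gave lower values for Parp12 and Parp14. Parp12 stood at 4.39 FPKM in Per2wt against 2.98 FPKM in Per2def (−0.44), and Parp14 at 4.53 and 3.56 FPKM (−0.28). Parp9, at 6.25 and 6.21 FPKM, did not differ by more than 0.01. Parp9 and Parp14, both on chromosome 16, thus differed by unlike amounts.

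Other response genes held both the widest higher difference and several lower ones. Xaf1, an interferon-inducible factor that favours apoptosis, stood at 3.36 FPKM in Per2wt against 8.13 FPKM in Per2def, 2.42-fold higher (difference 1.07; chromosome 11, 72301629 to 72313733). Only 2.94% of the 50-base words of Xaf1 occur in another transcript, and no annotated gene overlaps it. Ifi44, a cytoplasmic response gene, stood at 2.79 and 1.39 FPKM, 2.01-fold lower (−0.67; chromosome 3, 151730922 to 151749960). Ifi35 stood at 10.1 and 6.67 FPKM (−0.53), just short of the threshold, and Ifi27l2a at 5.98 and 5.18 FPKM (−0.18).

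The abundant genes of the same group differed little or were higher. Ifi27 stood at 28.6 FPKM in Per2wt against 28.9 FPKM in Per2def, and Lgals3bp, a secreted glycoprotein gene, at 34.0 and 33.1 FPKM. Lgals9, which encodes a galectin, was higher at 66.2 and 77.8 FPKM (0.23). Sp100, a nuclear body protein gene and the member nearest to Per2, 5.71 Mb away on chromosome 1, stood at 13.1 and 13.2 FPKM.

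Genes that switch the response off were lower in part. Usp18, which removes ISG15 from proteins and blocks signalling at IFNAR2, stood at 2.28 FPKM in Per2wt against 1.48 FPKM in Per2def (−0.40). Rtp4, a receptor chaperone gene reported to dampen interferon induction, stood at 7.12 and 4.12 FPKM (−0.67; chromosome 16, 23520291 to 23614222). The annotated Rtp4 span overlaps Masp1 on the other strand and a predicted gene, Gm45338, in which 13.6% of the 50-base words of the Rtp4 transcript occur. Socs1, an inhibitor of JAK kinases, stood at 1.60 and 1.53 FPKM (−0.04), and Trim30a, a limiter of Toll-like receptor signalling, at 6.32 and 6.76 FPKM (0.08). The feedback genes therefore went apart, with Usp18 and Rtp4 lower and Socs1 and Trim30a within 0.1 of 0.

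**Figure D3:**
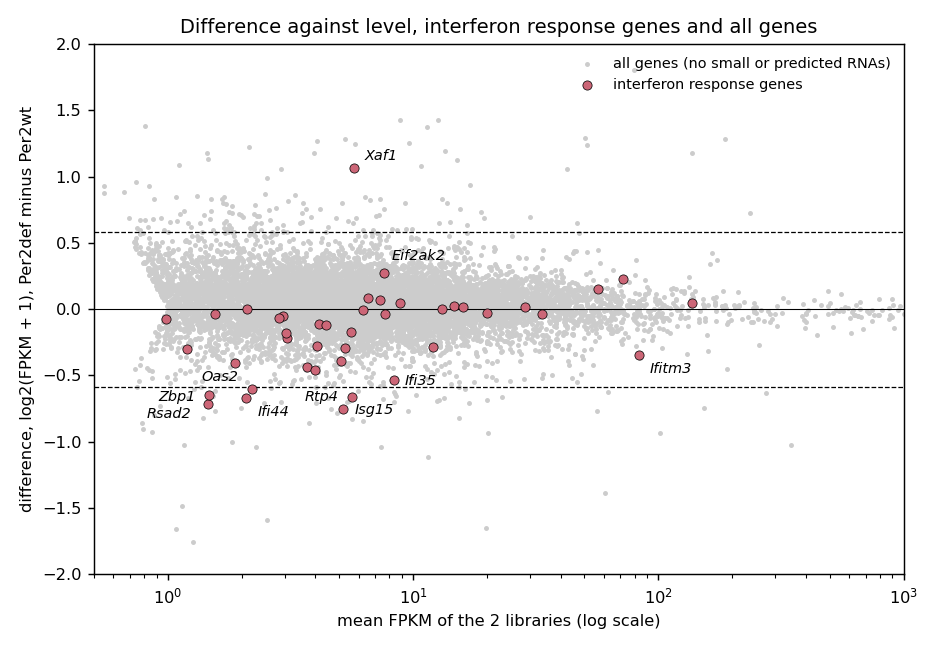
Difference (log2 of FPKM + 1, Per2def minus Per2wt) against the mean FPKM of the 2 libraries (log axis) for the 42 measured members (red) and all genes without small or predicted RNAs (grey; 35 of 10081 lie outside the axes); dashed lines mark 1.5-fold. The 6 members past 1.5-fold lie under the lower line, and Xaf1 lies above the upper line.

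The genes that make, relay or limit the interferon signal had a median difference near that of all genes. Of 58 further pathway genes 37 were measured, 29 higher and 8 lower in Per2def, against 62.0% of all genes higher. Their median was 0.07, near that of all genes (0.05), and none reached 1.5-fold in either direction, against 1.70% lower and 2.61% higher of all genes. At such shares few of 37 genes would pass, so a count of none says little about these genes. With median-of-ratios scaling 20 of the 37 were higher and 17 lower, against 51.0% of all genes higher, so a direction for these genes as a group depends on the scaling, while all 4 relay genes were then lower. Of 18 interferon ligand genes none was at 1 FPKM: 16 were listed at 0 in both libraries, Ifnk stood at 0.0707 and 0.114 FPKM, and Ifnz at 0.0528 and 0.0954 FPKM. In the relay below the receptor, Irf9 stood at 11.2 and 9.45 FPKM (−0.22) and Tyk2 at 6.76 and 6.21 FPKM (−0.11). Stat2, at 4.23 and 4.38 FPKM, and Jak1, at 20.1 and 20.7 FPKM, differed by 0.04 each. Irf9 is itself interferon-inducible, and was lower by less than the 6 members past the threshold.

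Of the IRF factors, Irf7 stood at 5.74 FPKM in Per2wt against 5.63 FPKM in Per2def. It is the main inducible one among those that turn on interferon genes. Irf3 stood at 14.1 and 12.3 FPKM (−0.18), whereas Irf5 stood at 3.56 and 4.68 FPKM (0.32). Irf1, Irf2 and Irf8 were between 13.7 and 16.3 FPKM in both libraries, each higher in Per2def by less than 0.2. Of 13 adaptors and kinases that carry sensor signals, such as Mavs, Tbk1 and Tmem173 (STING), 12 were higher, against 62.0% of all genes, with a median of 0.09 against 0.05. With median-of-ratios scaling 7 of the 13 were higher, against 51.0% of all genes. Of the genes of nucleic acid reception outside the members 4 were measured, the receptors Mb21d1, Tlr7 and Aim2 and the chaperone Unc93b1, and all were higher (median 0.28; 3 of 4 with median-of-ratios scaling). Unc93b1, which escorts endosomal Toll-like receptors, differed most of these, at 12.2 and 17.3 FPKM (0.48). Of 10 genes that limit the response, 7 were higher (6 with each of the other scalings), a share near the 62.0% of all genes. One of them was Trex1, an exonuclease that removes stray DNA (6.29 and 7.95 FPKM).

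**Figure D4:**
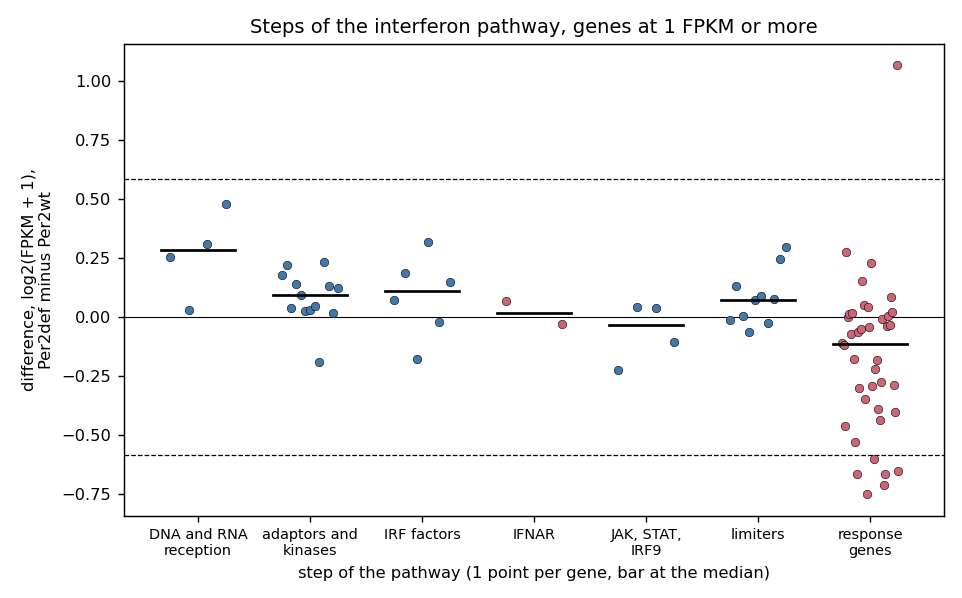
Difference (log2 of FPKM + 1, Per2def minus Per2wt) of each measured gene by step of the interferon pathway, with a bar at the median; red marks members, blue the other pathway genes, and dashed lines 1.5-fold. Points past a dashed line occur in the response genes, 6 lower and 1 higher. Each other step holds fewer genes, of which few would pass at the shares of all genes.

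Markers of other blood cells were present beside these values. Summed FPKM in Per2wt and then Per2def were 429 and 854 for neutrophil markers (8 of 8 at 1 FPKM or more in either library), with Retnlg at 2.16 FPKM in Per2wt and listed at 0 in Per2def, and 57.6 and 73.5 for monocyte and macrophage markers (6 of 8 found), with Cx3cr1 and Fcgr1 under 1 FPKM. Markers of plasmacytoid dendritic cells, which make much interferon (6 of 9), summed to 66.0 and 67.1 FPKM, with Ccr9, Spib and Klk1 under 1 FPKM in both. Most of this sum was Bst2 (40.2 and 36.5 FPKM), and Runx2 and Cox6a2 were also lower. Ly6d (1.52 and 4.25 FPKM), Siglech (1.02 and 1.66 FPKM) and Tcf4 (7.49 and 8.77 FPKM) were higher. T and natural killer cell markers (4 of 9) summed to 28.1 and 37.3 FPKM, erythroid markers (7 of 7) to 470 and 488 FPKM, and megakaryocyte markers (4 of 5) to 33.7 and 32.5 FPKM. Nkg7 made 23.7 and 28.4 FPKM of the T and natural killer sum. The others of that list at 1 FPKM or more, Cd3g, Thy1 and Tcf7, were also higher in Per2def. Within the erythroid list the globin genes were lower, Hba-a1 at 193 and 115 FPKM and Hbb-bt at 71.0 and 41.2 FPKM, while Car1 (177 and 294 FPKM) and Epor (7.82 and 11.9 FPKM) were higher. B lineage markers (1 of 6) summed to 6.90 and 6.55 FPKM and endothelial markers (2 of 4) to 13.2 and 14.2 FPKM. Stem cell markers summed to 206 and 193 FPKM, and the 3 multipotent progenitor markers to 102 and 105 FPKM. Of these 3, Flt3 (48.8 and 51.4 FPKM) and Cd48 (16.0 and 22.6 FPKM) were higher and Cd27 (37.3 and 31.0 FPKM) was lower. The part of these cells in the interferon response values was not tested.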

How the data were processed

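The authors deposited FPKM per gene from Cufflinks for each library, per the file headers; the submitters' processing notes also name CASAVA 1.8, TopHat, Bowtie2, GRCm38 and mm10. Libraries were made from poly(A) RNA with a kit that marks strand, per the labels' protocols; the strand setting of the quantification, the annotation and other versions are not given in these sources. Cufflinks shares ambiguous reads among copies, and FPKM are relative to each library's total.

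From 24487 rows per file, 9 without an estimate and 27 with symbols turned into dates were left out, and rows sharing a symbol were summed (Python 3.11.15, pandas 2.3.3). A gene was kept if 1 library or both had at least 1 FPKM. Differences used a pseudocount of 1 FPKM. Positions and 50-base words shared between transcripts came from GENCODE M21 (GRCm38), using each gene's longest coding transcript. Every measured member is named; 1 gene of the wider pathway list is not reported here. Members, lists and rules were chosen with earlier results of these data known. The procedure was tested on simulated data with 2-fold changes in genes at a mean of 5 FPKM or more. That setting did not cover genes at 1 to 5 FPKM or differences under 2-fold. Of 16 alternatives, 12 were planned and 4, on level bins and on the filter, were chosen after seeing the data. No test fits 1 library per genotype.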

Additional observations from a re-analysis of the deposited data

How the results depend on the processing

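The count of members lower in Per2def was 30 of 42 under other pseudocounts, which cannot change a direction. Under the 3 other scalings it was between 31 and 36. Each of these lowers Per2def relative to Per2wt, so the count could not fall. With no filter on low values it was 31 of 45, against 38.4% of all genes. With a floor of 5 FPKM, which leaves 24 members, 12 were lower and 12 higher, where 39.7% of all genes were lower. At least 1.5-fold lower were 2 of the 24, against 2.22% of all genes at that floor. Among the 38 members at 1 FPKM or more in both libraries, a limit added after seeing the data, 26 were lower and 4 were lower by at least 1.5-fold. With median-of-ratios scaling 6 members were higher in place of 12. At a threshold of 2-fold 0 of the 42 were lower past it, and at 0.32 on the log2 scale 12 were. With a pseudocount of 0.1 FPKM, Ifi35 (−0.59) and Usp18 (−0.59) also passed 1.5-fold. The mean difference of the members was −0.16. No scaling moved the median of all genes by over 0.1, and none could, since the largest factor was 1.0388. Depth is unknown and the low members carry the most counting error, so no interval can be given.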
